A study of Mus musculus with 5 samples.

Results

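MHC class II molecules are surface proteins that present peptides from the endosomal pathway to CD4 T cells. The genes described here are 7 members of that machinery, chosen by symbol among 17638 genes measured: H2-Aa, H2-Ab1 and H2-Eb1, which encode chains of the classical molecules, H2-DMa and H2-DMb1, Cd74, and Ciita. All 7 were measured and passed the filter on low values. Dendritic cells, B cells and activated macrophages carry class II constitutively or after activation, and endothelial cells can be induced to carry it by interferon-gamma. In the endoplasmic reticulum the invariant chain, encoded by Cd74, occupies the groove of a new alpha-beta pair. In late endosomes proteases degrade it to a short fragment, and the H2-DM heterodimer exchanges that fragment for an antigenic peptide. Ciita encodes the class II transactivator, a coactivator that does not bind DNA itself and is recruited to factors already bound at the promoters of these genes.

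Polyadenylated RNA was sequenced from cells labelled as CD31-positive endothelial cells of mouse hearts at 5 days after myocardial infarction. There were 2 libraries of the conditional knockout called Tbx1cko, described in the series as an endothelial knockout of the transcription factor gene Tbx1, and 3 control libraries. All mice were 2 months old on a C57BL/6 background, and the knockout and control hearts had both been infarcted. For the driver of the deletion and the alleles of the controls the labels give nothing further. Nor do they tie each library to its own animal, so the p-values here reflect the spread among 5 libraries, which may be technical.

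The libraries held between 14689782 and 18617284 reads assigned to genes. Normalised counts of Tbx1 were 18.3 and 17.3 in Tbx1cko replicates 1 and 2, against 64.4, 72.7 and 69.6 in control replicates 1 to 3, lower in both libraries labelled as knockout. The endothelial markers Pecam1, which encodes CD31, and Cdh5 were abundant in every library, with Pecam1 at 38311 and 33715 normalised counts in Tbx1cko and between 37541 and 43313 in controls. The leukocyte marker Ptprc was present too, at 2857 and 3257 in Tbx1cko and 2897, 460 and 2636 in controls. Control replicate 2 stood apart: its log2 values correlated with those of the other libraries at r between 0.859 and 0.889 across genes, against 0.980 to 0.988 among the others, and its deviation followed the GC content of the transcripts (Spearman rho 0.822 across genes). Across genes, the Tbx1cko minus control difference also went with GC content (rho -0.732, 13771 genes), and the members lie between 48.9% and 57.7% GC. Values without this library, and with a correction for GC content, are therefore given beside some of the results that they move. Results printed without them may move too.

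The classical genes share a promoter module. Background knowledge places in it an X box bound by the RFX complex, an adjoining site bound by CREB, which recognises the cyclic AMP response element, and a Y box bound by NF-Y, which recognises an inverted CCAAT. RefSeq promoter windows on GRCm38.p6, from 250 bases before to 50 after the annotated start, matched 4 of the 7 members. The stretch from base -110 to base -21 is shown for these 4 because it holds the module where it was found. Capitals mark an X box core of 10 bases, in which positions 1, 2, 5, 6, 9 and 10 were fixed to the letters shown in H2-Eb1 and the others were free, a Y box core searched as ATTGG (its complement where it lies on the opposite strand) and the cyclic AMP response element TGACGTCA, each on both strands.
H2-Aa: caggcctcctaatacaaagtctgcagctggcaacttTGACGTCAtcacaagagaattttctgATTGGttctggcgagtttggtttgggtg
H2-Eb1: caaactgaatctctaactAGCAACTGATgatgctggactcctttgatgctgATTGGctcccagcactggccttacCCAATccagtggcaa
H2-DMb1: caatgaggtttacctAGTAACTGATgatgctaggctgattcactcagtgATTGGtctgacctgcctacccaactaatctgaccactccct
H2-DMa: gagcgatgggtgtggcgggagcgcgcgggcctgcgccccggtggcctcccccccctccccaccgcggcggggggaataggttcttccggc

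The stretches lie at chr17:34287844-34287933 on the minus strand for H2-Aa, and on the plus strand at chr17:34305757-34305846 for H2-Eb1, chr17:34153081-34153170 for H2-DMb1 and chr17:34122722-34122811 for the first of 2 H2-DMa starts. H2-Eb1 and H2-DMb1 held an X box core followed by a Y box core, with 33 and 34 bases between their first bases. H2-Aa held the cyclic AMP response element from base -74 and a Y box core from base -48, with no match to the X box core as spelled. The first H2-DMa window held none of the 3 motifs, and its second window held a Y box core only, at base -198. That first window begins inside the opposite-strand neighbour Brd2, which spans 34112023 to 34122634. Only these 2 H2-DMa starts were searched, so whether a module lies elsewhere in the gene is not shown. The H2-DMa stretch was 78.9% G and C, where the other 3 stretches were between 46.7% and 48.9%.

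Over all 32851 promoter windows, 9.89% held the X box core, 37.4% the Y box core and 1.79% the cyclic AMP response element. An X box core followed on the same strand by a Y box core, with 30 to 36 bases between their first bases, was found in 16 windows, or 0.0487%, a spacing set after these sequences were seen. Besides H2-Eb1 and H2-DMb1, the windows of H2-Ob and H2-Eb2 were among them, with 31 and 33 bases. In H2-Oa the cores lay 98 bases apart, and the window of H2-DMb2 held a Y box core only. A match describes letters and shows no binding.

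**Figure D1:**
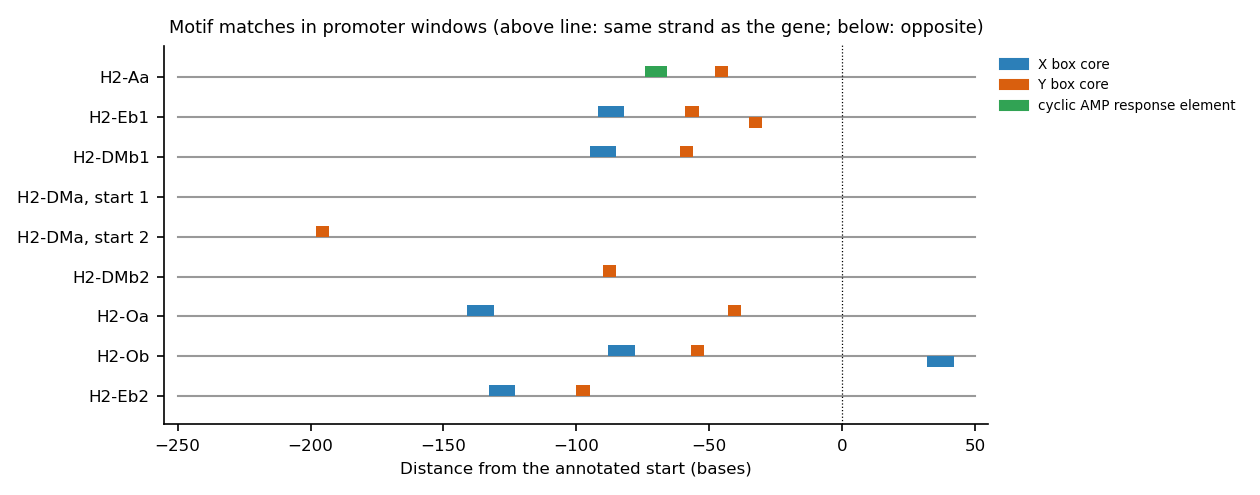
Matches to the X box core, the Y box core and the cyclic AMP response element in promoter windows of class II genes, by distance in bases from the annotated start (0). Boxes above a line are on the strand of the gene and boxes below it on the opposite strand; the X and Y cores of H2-Eb1, H2-DMb1, H2-Ob and H2-Eb2 lie 31 to 34 bases apart, and the first H2-DMa start has no match.

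Of the 7 genes, 5 lie together on chromosome 17, within 197 kilobases from 34119541 to 34316674 in GRCm38. In order they are H2-DMa (34119541 to 34139101, plus strand), H2-DMb1 (34153072 to 34160230, plus), H2-Ab1 (34257689 to 34269419, plus), H2-Aa (34282744 to 34287823, minus) and H2-Eb1 (34305867 to 34316674, plus). Cd74 lies on chromosome 18 (60803848 to 60812652, plus) and Ciita on chromosome 16 (10480059 to 10528418, plus). All 7 are annotated as protein-coding. Whether counting used the strand is not stated, so reads of H2-DMa and its opposite-strand neighbour Brd2, and of Ciita and its opposite-strand neighbour Dexi, whose exons overlap in the annotation, cannot be told apart. H2-DMb1 shared 22.7% of its 50-base words with its neighbouring copy H2-DMb2, so its count is uncertain. H2-Aa shared 0.488% of such words with other genes and the remaining 5 genes shared 0%.

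Levels between genes were compared per kilobase of the principal annotated transcript. Cd74 was highest, at 2764 ± 142 normalised counts per kilobase in Tbx1cko (SD, n = 2) and 4312 ± 1128 in controls (SD, n = 3). H2-Aa followed with 2076 ± 149 in Tbx1cko and 2704 ± 522 in controls, then H2-Ab1 with 1500.1 ± 177 in Tbx1cko and 2266 ± 553 in controls, and H2-Eb1 with 1012 ± 199 in Tbx1cko and 1469 ± 325 in controls. These 4 kept their order in every library, but neighbours in it overlapped in their range over libraries, and with the union of all exons as the length H2-Eb1 came before H2-Ab1 and H2-Ab1 before H2-Aa. H2-DMb1 was at 159 ± 25.3 in Tbx1cko and 199 ± 34.4 in controls, and H2-DMa at 162 ± 7.44 in Tbx1cko and 175 ± 47.9 in controls, and their order differed between libraries. Ciita was lowest, at 7.41 ± 0.793 in Tbx1cko and 11.4 ± 4.60 in controls.

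All 7 genes had a negative fitted log2 difference between Tbx1cko and control, and 0 of 7 passed the test. Across all 14339 genes tested, 47.6% had a negative difference. limma, with Benjamini-Hochberg adjustment over all these genes at a threshold of 0.05, called 0% of them, edgeR called 0%, and DESeq2 called 0.0279%, none of them a member. Tbx1 itself had an adjusted p of 0.762 in limma and 0.0349 in DESeq2. Not passing the limma threshold thus does not show that a gene was unchanged. At an unadjusted p under 0.05, where limma placed 1.74% of all genes, and 1.37% of all genes on the lower side, there were 0 members in limma. There were 0 in edgeR, against 1.98% of all genes, and 0 in DESeq2, against 2.36%. The median difference of the 7 genes was -0.53, where the median of all genes tested was 0.03. All differences are on log2(normalised count + 1), Tbx1cko minus control.

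The groups did not overlap for 4 of the 7 genes, H2-Aa, H2-Ab1, Cd74 and Ciita, each lower in Tbx1cko; over all genes tested, 13.9% were lower without overlap. In bulk samples, fewer cells that carry a transcript and less of it per cell cannot be told apart.

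Cd74, the invariant chain, had 3756 and 4039 normalised counts in Tbx1cko replicates 1 and 2, against 7555, 6291 and 4395 in control replicates 1 to 3. Control replicate 3 lay close to the Tbx1cko libraries, 1.09-fold above the higher of them, while the controls differed from each other by up to 1.72-fold. The mean was 3897 ± 199.6 in Tbx1cko (SD, n = 2) and 6080.1 ± 1590.2 in controls (SD, n = 3), which is 1.56-fold lower in Tbx1cko, with a fitted log2 difference of -0.61 (SE 0.271, 95% interval -1.29 to 0.07) and a limma adjusted p of 0.762. With the GC correction the difference was -0.33.

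H2-Ab1, the I-A beta chain, had 1666 and 1970 normalised counts in Tbx1cko and 3291, 2949 and 1999 in the controls. The lowest control, again replicate 3, was 1.01-fold above the higher Tbx1cko library, so the groups were separated by less than the spread within either of them. The log2 difference was -0.57 (SE 0.274, 95% interval -1.26 to 0.12; limma adjusted p = 0.762), and -0.24 with the GC correction.

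H2-Aa, the partner alpha chain, had 2223 and 2461 normalised counts in Tbx1cko and 3708, 2868 and 2574 in controls. Control replicate 3 was 1.05-fold above the higher Tbx1cko library. The log2 difference was -0.37 (SE 0.225, 95% interval -0.93 to 0.20, limma adjusted p = 0.762). It was -0.22 without control replicate 1 and -0.46 with the GC correction.

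H2-Eb1 encodes the I-E beta chain. Mice of the C57BL/6 background carry an inactive H2-Ea, annotated here as the polymorphic pseudogene H2-Ea-ps, so that the I-E alpha partner is lacking. H2-Eb1 RNA was nevertheless abundant, at 1455 and 1924 normalised counts in Tbx1cko and 2951, 2529 and 1876 in controls. The groups overlapped, since control replicate 3 lay below Tbx1cko replicate 2. The log2 difference was -0.53 (SE 0.271, 95% interval -1.21 to 0.15; limma adjusted p = 0.762). It was -0.33 without Tbx1cko replicate 1 and -0.32 with the GC correction.

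The H2-DM genes encode the heterodimer that loads peptide. H2-DMa had 260 and 277 normalised counts in Tbx1cko and 359, 306 and 203 in controls, so both Tbx1cko libraries lay inside the control range. Its log2 difference was -0.07 (SE 0.310, 95% interval -0.85 to 0.71; limma adjusted p = 0.930), and its sign changed without control replicate 1, at 0.10, and after a correction for GC content, at 0.20. H2-DMb1 had 198 and 249 in Tbx1cko and 332, 267 and 238 in controls, with overlap and a difference of -0.31 (SE 0.261; limma adjusted p = 0.762). That was -0.15 without Tbx1cko replicate 1, -0.18 without control replicate 1 and -0.16 with the GC correction.

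Ciita, the transactivator, had 41.2 and 47.9 normalised counts in Tbx1cko and 53.1, 100.3 and 51.8 in controls. The groups did not overlap, but control replicate 2 was 1.94-fold above the lowest control, and without it the log2 difference was -0.23 in place of -0.54 (SE 0.404, 95% interval -1.56 to 0.47; limma adjusted p = 0.762), and -0.27 with the GC correction. These values rest on 45 to 109 reads a library, for which counting error alone is a relative SD of 14.9% to 9.58%, against a relative SD of 40.4% among the controls. The other members rested on 216 to 6839 reads. Ciita has several promoters used by different cell types, and a count per gene does not separate them.

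**Figure D2:**
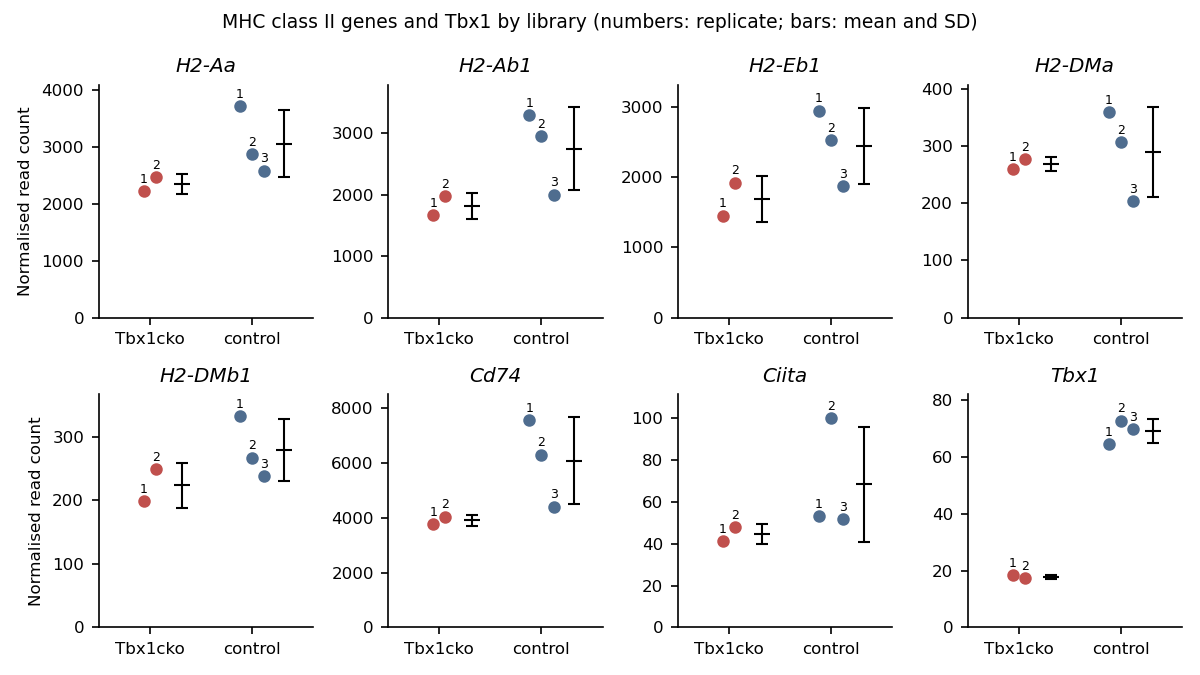
Normalised read counts of the 7 class II genes and of Tbx1 in each library, with Tbx1cko (n = 2) left and control (n = 3) right; numbers are replicates and bars the mean ± SD. Control replicate 3 is the lowest control for all 7 class II genes and lies next to, within or, for H2-DMa, below the Tbx1cko values, while Tbx1 separates the groups at 17.3 to 18.3 against 64.4 to 72.7.

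Without control replicate 2, 0 of the 7 genes passed the limma threshold, which 0.0209% of all genes passed, and the adjusted p of the members lay between 0.545 and 0.999. Cd74, H2-Ab1, H2-Aa and H2-Eb1 were then lower at an unadjusted p under 0.05, as were 4.07% of all genes. Their differences moved little, to -0.56 for Cd74, -0.50 for H2-Ab1, -0.40 for H2-Aa and -0.49 for H2-Eb1. The median of the 7 was -0.40 without that library and -0.27 with a correction for GC content over all 5 libraries, where 6 of 7 were lower.

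**Figure D3:**
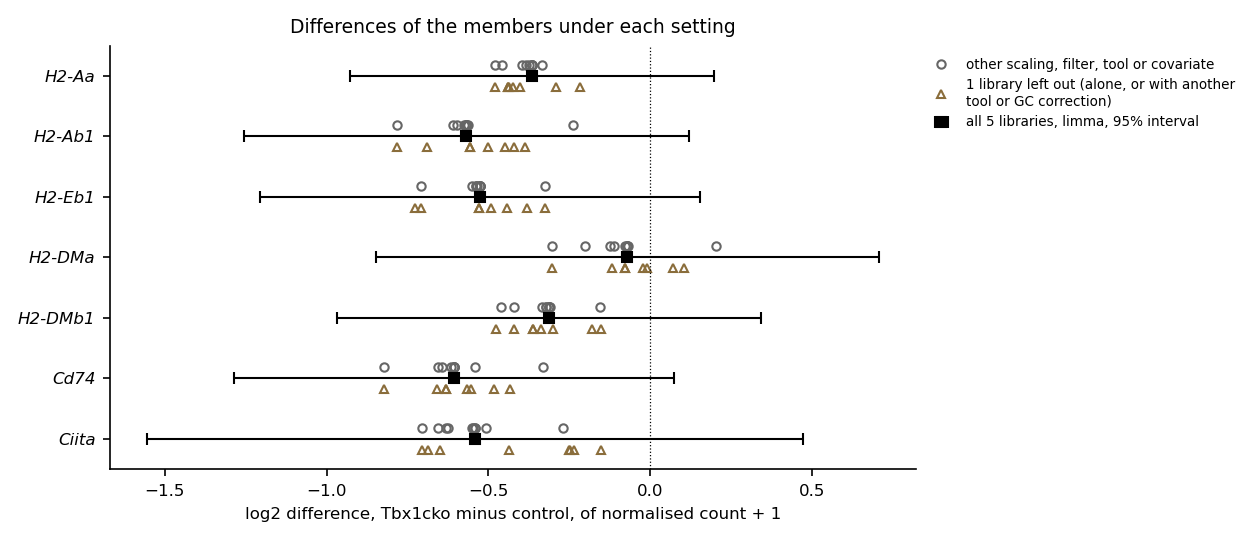
Fitted log2 differences, Tbx1cko minus control, of each member. Squares with 95% intervals are the limma fit to all 5 libraries, circles are other scalings, filters, tools or covariates, and triangles are fits that leave out a library; all 7 intervals include 0, and H2-DMa alone has values on both sides of 0.

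The members were also described by their common profile. Centred on its own mean, the average log2 level of the 7 genes was -0.37 and -0.15 in Tbx1cko replicates 1 and 2 and 0.39, 0.30 and -0.18 in control replicates 1 to 3. Control replicate 3 thus lay between the Tbx1cko libraries. H2-Ab1 was nearest to this average profile, with a root mean square difference of 0.083, and Ciita farthest, at 0.321.

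Ratios within a library show which genes moved together, without regard to scaling. Cd74 per H2-Ab1 was 2.25 and 2.05 in Tbx1cko and 2.30, 2.13 and 2.20 in controls, a range of 1.12-fold over all libraries. H2-Eb1 per H2-Ab1 was 0.873 and 0.977 in Tbx1cko and 0.897, 0.858 and 0.939 in controls. Both ratios overlapped between the groups, while among the controls Cd74 varied by 1.72-fold, H2-Ab1 by 1.65-fold and H2-Eb1 by 1.57-fold.

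H2-DMa did not keep 1 proportion to Cd74. H2-DMa per Cd74 was 0.0692 and 0.0686 in Tbx1cko and 0.0476, 0.0487 and 0.0462 in controls, so that both Tbx1cko libraries lay above all controls. H2-DMa per H2-Aa was 0.117 and 0.113 in Tbx1cko and 0.0969, 0.107 and 0.0789 in controls, also without overlap. H2-DMb1 per H2-Aa overlapped, at 0.0893 and 0.101 in Tbx1cko and 0.0896, 0.0930 and 0.0925 in controls. Cd74 per H2-Aa was lower without overlap, at 1.69 and 1.64 in Tbx1cko and 2.04, 2.19 and 1.71 in controls. These pairs were looked at after the values were seen and were not tested.

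**Figure D4:**
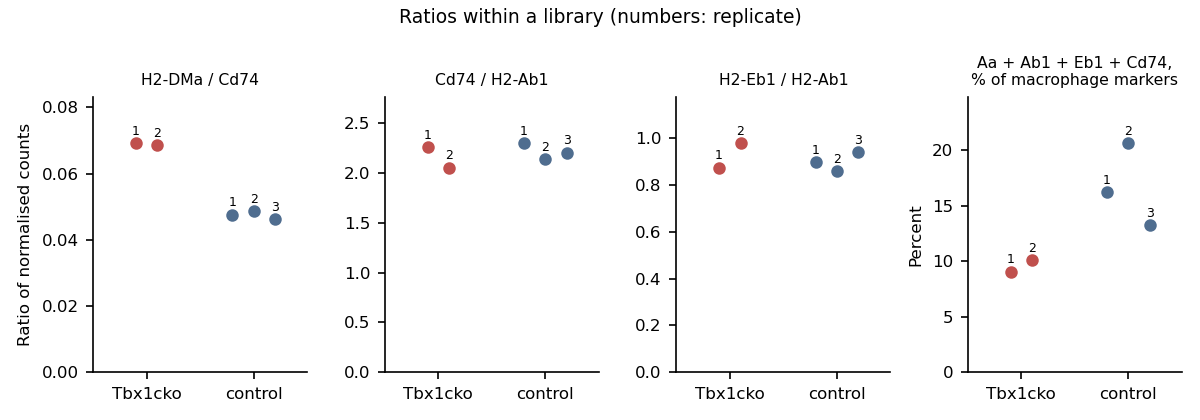
Ratios of normalised counts within each library, Tbx1cko left and control right, and the summed counts of H2-Aa, H2-Ab1, H2-Eb1 and Cd74 as a percent of the summed macrophage and monocyte markers; numbers are replicates. H2-DMa per Cd74 is near 0.069 in both Tbx1cko libraries and between 0.0462 and 0.0487 in the controls, while Cd74 per H2-Ab1 and H2-Eb1 per H2-Ab1 overlap.

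Other genes of the pathway and markers of cells that carry class II were described from 13 lists, with 96 distinct genes tested. In limma 0 of the 96 passed, and 3 had an unadjusted p under 0.05, namely Lag3, Pf4 and Ppbp. edgeR called 0 and DESeq2 called 0, with 3 and 4 at an unadjusted p under 0.05. Over all genes the shares were 1.74% in limma, 1.98% in edgeR and 2.36% in DESeq2. Each value below is thus a description of these libraries.

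The other class II chains had a positive difference in 4 of 4 genes tested. H2-Ob and H2-Oa encode H2-O, which inhibits H2-DM. H2-Ob had 138 and 167 normalised counts in Tbx1cko and 158, 120 and 138 in controls. H2-Oa was low, at 23.8 and 17.3 in Tbx1cko and 4.52, 22.1 and 9.41 in controls. H2-DMb2, the neighbouring copy of H2-DMb1, had 90.5 and 132 in Tbx1cko and 123, 130 and 65.9 in controls, and H2-Eb2 had 15.5 and 30.6 in Tbx1cko and 13.6, 19.3 and 23.5 in controls. The groups overlapped for all 4, and their median log2 difference was 0.19. With the GC correction 2 were higher and 2 lower, with a median of 0.10, H2-Eb2 at -0.35 and H2-Ob at -0.06.

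The transcription factors that assemble on the X and Y boxes, with the class I coactivator Nlrc5, had 3 of 8 genes higher and 5 lower in value, with a median difference of -0.11. Without control replicate 2 the tally turned to 6 higher and 2 lower, with a median of 0.03. With the GC correction it was 2 higher and 6 lower, with a median of -0.06. Rfx5, the DNA-binding subunit of RFX, had 136 and 122 normalised counts in Tbx1cko and 125, 226 and 131 in controls, and its difference was 0.01 without control replicate 2. Creb1 had 1250 and 1377 in Tbx1cko and 1186, 414 and 1211 in controls. Nfya, an NF-Y subunit, had 1477 and 1569 in Tbx1cko and 1652, 1839 and 1570 in controls. Nfyc, its partner subunit, had 537 and 579 in Tbx1cko and 585, 812 and 522 in controls, with overlap. In each of these genes the widest deviation was that of control replicate 2. The difference of Creb1, 0.64, was 0.13 without that library and -0.05 with the GC correction.

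Genes of peptide loading and class II turnover mostly had positive differences, unlike the members. Of 11 tested, 10 had a positive difference, at a median of 0.38, and 9 did not overlap and were higher in Tbx1cko, where 14.2% of all genes tested were. Without control replicate 2, a setting chosen for the lists once values were known, 11 of 11 had a positive difference and 10 did not overlap, where 19.7% of all genes did so. With the GC correction, chosen likewise, 10 were higher and 1 lower, with a median of 0.31.

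Ifi30, the lysosomal thiol reductase GILT, had 2114 and 1923 normalised counts in Tbx1cko and 1647, 1514 and 1421 in controls, a log2 difference of 0.40 (SE 0.183; limma adjusted p = 0.762). Ctss, the cathepsin that trims the invariant chain in antigen-presenting cells, had 12541 and 14328 in Tbx1cko and 11355, 6785 and 10533 in controls. Ctsl, a related cathepsin, had 10762 and 10573 in Tbx1cko and 7499, 7856 and 9440 in controls. For all 3 genes both Tbx1cko libraries lay above every control. The tetraspanin gene Cd63, whose protein marks late endosomes, had 3509 and 4046 in Tbx1cko and 3172, 2430 and 2927 in controls, again without overlap. With the GC correction the difference of Ctsl was 0.07 in place of 0.38, and that of Ctss 0.18 in place of 0.52. That of Ifi30 was 0.57 in place of 0.40, and that of Cd63 0.61 in place of 0.42. None of these differences passed the test, and all 4 genes are expressed in macrophages generally.

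Genes of the interferon-gamma pathway were mixed, with 8 of 13 higher and 5 lower in value and a median of 0.15, or -0.03 without control replicate 2. Socs1, a feedback inhibitor induced by interferon, had 345 and 334 normalised counts in Tbx1cko and 602, 1495 and 455 in controls, a log2 difference of -1.13 (SE 0.529; limma adjusted p = 0.762) that was -0.62 without control replicate 2. Irf8, a transcription factor of myeloid and dendritic cells, had 1037 and 1311 in Tbx1cko and 1562, 2184 and 1343 in controls. Both genes were lower in Tbx1cko without overlap. The receptor gene Ifngr1 was higher without overlap, at 4086 and 4169 in Tbx1cko and 3582, 2810 and 3315 in controls. Cxcl10, a chemokine induced by interferon, had 1595 and 2102 in Tbx1cko and 2919, 3747 and 1929 in controls, with overlap.

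Among costimulatory genes and genes of cells that read class II, 4 of 9 were higher and 5 lower in value. Lag3, a receptor of T cells that binds class II, had 89.6 and 90.7 normalised counts in Tbx1cko and 179, 233 and 153 in controls, with no overlap and the smallest p of the list. Its log2 difference was -1.03 (SE 0.280; limma unadjusted p = 0.0122, adjusted p = 0.762), -0.87 without control replicate 2 and -0.65 with the GC correction. Cd274, the checkpoint ligand PD-L1, had 1191 and 1357 in Tbx1cko and 1595, 1600 and 1322 in controls. Cd80 had 281 and 248 in Tbx1cko and 251, 12.9 and 223 in controls. Cd28, its receptor on T cells, had a difference of 0.59 (SE 0.485; limma adjusted p = 0.762), which was 0.28 without control replicate 2 and -0.30 with the GC correction. For these 3 the groups overlapped.

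**Figure D5:**
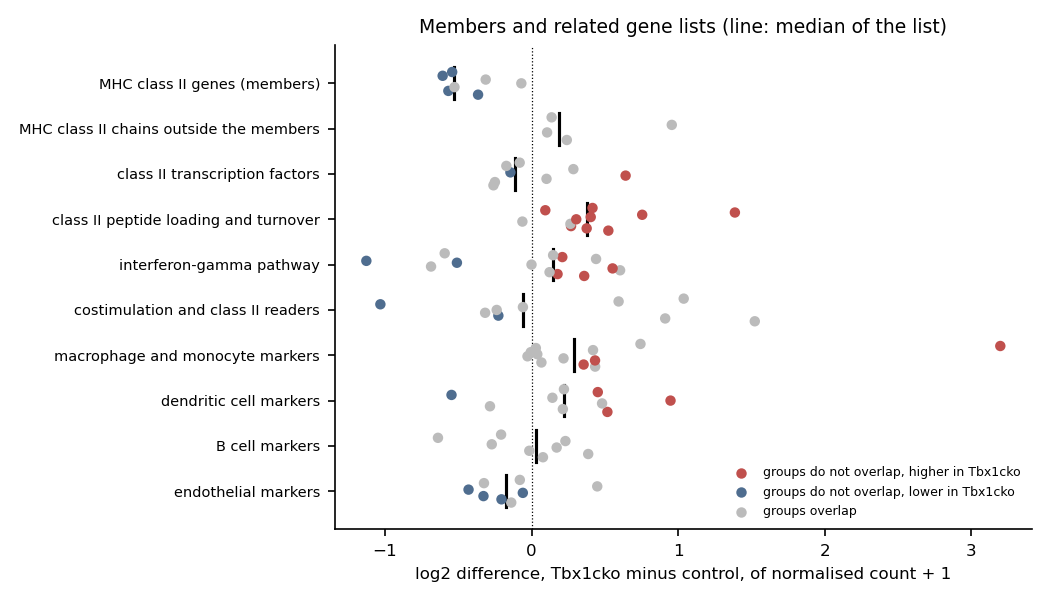
Log2 differences, Tbx1cko minus control, of the members and of genes in related lists; each point is a gene, coloured by whether the groups overlap, and each black line is the median of its list. The members have a median of -0.53 and the peptide loading genes 0.38; 0 genes shown passed the adjusted threshold.

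The cells that can carry class II were followed by their markers, whose part in the class II values was not tested. Macrophage and monocyte markers, 12 in all, summed to between 100466 and 102685 normalised counts in Tbx1cko and between 70925 and 107787 in controls, with a median log2 difference of 0.29, or 0.08 without control replicate 2. In value 10 of 12 were higher, 6 without control replicate 2 and 12 with the GC correction, where the median was 0.32. Adgre1, the macrophage surface marker F4/80, had 4763 and 4862 in Tbx1cko and 5916, 1790 and 4276 in controls. Ccr2, a monocyte receptor, had 607 and 431 in Tbx1cko and 419, 0 and 415 in controls, higher in Tbx1cko without overlap, and no other marker of this list was at 0. Fcgr1 and Cd68 were also higher without overlap, Cd68 at 3915 and 4660 in Tbx1cko and 3309, 3623 and 3110 in controls. Lyz2 and Ly6c2 overlapped. Pan-leukocyte markers summed to between 13754 and 14899 in Tbx1cko and between 7670 and 14406 in controls, with 4 of 4 higher in value and a median difference of 0.60, or 0.18 without control replicate 2. Cd53, a leukocyte tetraspanin, had 2647 and 2633 in Tbx1cko and 1973, 18.4 and 2053 in controls. Cd53 and Coro1a were higher in Tbx1cko without overlap, and Ptprc and Laptm5 overlapped.

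The summed counts of H2-Aa, H2-Ab1, H2-Eb1 and Cd74 were 9101 and 10394 in Tbx1cko and 17506, 14637 and 10844 in controls. Set against the summed macrophage markers they came to 9.06% and 10.1% in Tbx1cko and 16.2%, 20.6% and 13.2% in controls. Against the pan-leukocyte markers they came to 66.2% and 69.8% in Tbx1cko and 122%, 191% and 90.7% in controls. Both ratios were lower in Tbx1cko without overlap, also without control replicate 2. The 20.6% and 191% were those of control replicate 2, whose marker sums, 70925 and 7670, were the lowest. Both ratios carry no GC correction, were formed after the values were seen and were not tested.

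Dendritic cell markers were mostly higher in value, 7 of 9 tested against 2 lower, and 5 against 4 without control replicate 2. Their sums ranged from 2850 to 2965 in Tbx1cko and from 2643 to 3241 in controls, and 0 of 10 measured were at 0 in any library. Itgax, which encodes CD11c, had 222 and 284 normalised counts in Tbx1cko and 150, 178 and 202 in controls. The lectin gene Clec10a had 260 and 382 in Tbx1cko and 210, 254 and 229 in controls, and Clec9a had 426 and 451 in Tbx1cko and 271, 109 and 393 in controls, so that all 3 were higher in Tbx1cko without overlap. Batf3, a transcription factor of cross-presenting dendritic cells, was lower without overlap, at 24.7 and 33.6 in Tbx1cko and 41.8, 47.8 and 38.6 in controls. Zbtb46, which endothelial cells express too, had 1731 and 1396 in Tbx1cko and 1650, 2385 and 1726 in controls, the highest of the list in every library. The sums above therefore rest largely on Zbtb46 and do not follow dendritic cells alone.

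B cell markers were low. Their sum was 524 in each Tbx1cko library and between 443 and 606 in controls, with 4 of 8 higher and 4 lower in value and 0 of 8 at 0 in any library. Blk, a kinase of B cells, had 20.1 and 44.8 normalised counts in Tbx1cko and 45.2, 59.8 and 39.5 in controls, with overlap. Pax5, Ms4a1 and Cr2 overlapped as well. T cell markers summed to between 260 and 283 in Tbx1cko and between 238 and 322 in controls, and Trac, Cd8a, Cd3g and Cd3e overlapped. NK cell markers were at most 32.8 in sum, with Gzma at 9.15 and 26.5 in Tbx1cko and 27.1, 1.84 and 5.65 in controls.

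Endothelial markers had 7 of 8 genes lower in value, with a median difference of -0.17, or -0.08 without control replicate 2, and sums between 154549 and 164526 in Tbx1cko and between 165966 and 219266 in controls. Kdr, the VEGF receptor VEGFR2, had 25887 and 22828 normalised counts in Tbx1cko and 30316, 34862 and 26923 in controls. Tie1 and Cdh5 were lower in Tbx1cko without overlap too, and Egfl7 overlapped. Of the 8 markers, 4 were lower without overlap and 0 higher, where 13.9% of all genes tested were lower. The difference of Tie1, -0.43, was -0.15 without control replicate 2 and -0.10 with the GC correction. That of Cdh5, -0.21, was -0.08 in either setting, and that of Kdr, -0.33, was -0.23 and -0.44. With the GC correction 6 of 8 were lower, with a median of -0.13. Platelet markers, since platelets carry CD31 too, summed to between 3200 and 3646 in Tbx1cko and between 1339 and 2352 in controls. Pf4, a platelet chemokine, made up most of each sum, at 2923 and 2726 in Tbx1cko and 1049, 1625 and 1888 in controls. Pf4 and Ppbp were higher without overlap, while Gp9 and Itga2b overlapped, with log2 differences of -0.24 and 0.006.

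The genes whose pattern over the 5 libraries was most like the average profile of the members were sought among 11623 others with a mean of at least 50 normalised counts, by the root mean square difference of centred log2 values. The 10 nearest were Zfp691, 2610507I01Rik, Gpr153, Sssca1, Dkk3, Rbm24, C1ra, 2410131K14Rik, Rcn3 and Mob3a, at differences from 0.0497 for Zfp691 to 0.101 for Mob3a. No member was as near as the first 5 of these. C1ra, which encodes a complement protease, had 215 and 218 normalised counts in Tbx1cko and 314, 321 and 202 in controls, with overlap. Rcn3 had 286 and 302 in Tbx1cko and 407, 460 and 307 in controls, without overlap. In both genes control replicate 3 was the lowest control, as in the members.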

How the data were processed

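Polyadenylated RNA of 5 libraries was measured. TRIzol LS extraction and a TruSeq mRNA kit are named per the labels' protocols. The submitters' processing notes list DESeq2 1.20.0, R 3.5.1, DESeq and STAR 2.5.2b, with the build GRCm38 (mm10). Read counter, annotation and strand setting: not given in the sources used here. The deposited signal is, per gene, a read count over a size factor. Of the values, 100% were whole multiples of the library's smallest value above 0, within 0.01, which gave whole reads.

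Genes with a mean of at least 10 normalised counts (14339) were tested with limma 3.58.1 (R 4.3.3) on log2(normalised count + 1), genotype as the only term, trended prior, 2-sided, Benjamini-Hochberg adjusted. edgeR 4.0.16 and DESeq2 1.42.0 on the recovered reads, other pseudocounts, filters and scalings, a replicate block, a GC correction (loess, span 0.3, GENCODE M21) and leaving out libraries were alternatives. The tests were tested on simulated data. No replicate pair agreed within sampling noise (chi-square per degree of freedom 13.0 to 184.6). The members and lists were chosen with earlier results of these data known. Named were the members, the 4 genes with the smallest p of each list, other class II chains, defining markers and the 10 genes most alike; 1 defining marker is not reported here. Ccr2, Zbtb46 and, among the genes most alike, C1ra and Rcn3 were given values after these were seen. A GC value was found for 96.0% of tested genes. Intervals for reads cover counting error only.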

Additional observations from a re-analysis of the deposited data

How the results depend on the processing

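Under 18 alternatives, 0 of the 7 class II genes passed the adjusted threshold in any of them, where an adjusted p was given; DESeq2 gave none for Ciita without control replicate 2. The smallest adjusted p of a member was 0.294, for H2-Ab1 with DESeq2 without control replicate 2. Cd74, H2-Aa, H2-Ab1, H2-Eb1, H2-DMb1 and Ciita kept a negative difference under all 18, from -0.82 to -0.33 for Cd74, -0.48 to -0.22 for H2-Aa, -0.78 to -0.24 for H2-Ab1, -0.73 to -0.32 for H2-Eb1, -0.48 to -0.15 for H2-DMb1 and -0.71 to -0.15 for Ciita. H2-DMa changed sign with the GC correction (0.20), without control replicate 2 with the GC correction (0.072) and over single left-out libraries, where it ranged from -0.31 to 0.10. The median of the members was -0.27 with the GC correction and between -0.71 and -0.33 with a library left out, and the cause was not tested. The count of all genes called, 0 with limma, was 4 with DESeq2 and 3 with the replicate block. It was 0 to 3 with single libraries left out, and without control replicate 2 it was 1 with edgeR and 78 with DESeq2. Deviations from the group means did not go together in same-numbered libraries (r = -0.0556 and -0.0461 across genes). With 2 Tbx1cko libraries these deviations mirror each other, and those of the controls include that of control replicate 2. The check therefore cannot exclude pairing. The numbers were taken from the sample titles, and the descriptions of the Tbx1cko samples carry other numbers as well. The replicate block, in which control replicate 3 stands alone, called 0 members and gave a median of -0.71. A fit that leaves a lone Tbx1cko library assumes that it varies like the controls. Ciita had the fewest reads of the members, 45 to 109 a library.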
